A study of Mus musculus with 8 samples.

Results

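The genes described are the ephrins, their Eph receptors, the Slit ligands, their Robo receptors and the srGAP proteins that act below Robo, measured in cortical bone of the mouse femur. They were chosen by symbol alone, as genes of the deposited table named Efna, Efnb, Epha, Ephb, Slit, Robo or Srgap with a number. The rule found 15 of the 1994 genes in the table. Of the 32 protein-coding genes that the annotation gives these families, 46.9% were therefore listed: 5 of 14 Eph receptors, 4 of 8 ephrins, 2 of 3 Slits, 3 of 4 Robos and 1 of 3 srGAP genes. The other 17, Epha7, Ephb2, Slit1, Robo3 and Srgap2 among them, were not listed, and nothing is said about their level. Both groups were 16 weeks old and had eaten chow with tamoxifen at 400 mg/kg for 4 weeks, starting at 12 weeks of age. Control mice carried loxP-flanked Fgfr1 (Fgfr1f/f), with no Cre named. FGFR1-CKO mice carried the same alleles with DMP1-CreER, a tamoxifen-dependent Cre under the promoter of Dmp1, a gene of late osteoblasts and osteocytes. Presence of Cre and loss of Fgfr1 cannot be told apart. The shaft of the femur was flushed of marrow and its RNA was sequenced in bulk, with 4 libraries per group. The submitters took the 4 Controls with the highest Fgfr1 out of 6 sequenced and the 4 FGFR1-CKO with the lowest out of 7, so every p-value is conditional on that choice.

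Ephrins and Ephs signal where cells touch. An ephrin-A is held on the membrane by a lipid anchor and an ephrin-B by a transmembrane segment. Binding to an Eph receptor tyrosine kinase on the next cell sends a signal into both cells, which usually repels or sorts them. Slits are large secreted proteins that bind Robo receptors, and srGAP proteins act inside the cell below Robo. These families are best known for steering axons. In mouse bone ephrin-B2 and EphB4 are known for contact signalling between osteoclasts and osteoblasts, and Slit3 has been described as a secreted factor of both cell types that also acts on vessels.

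Sequence around the start of the gene is shown for Epha3, which had the largest decrease among the 15, and Slit3, which had the highest level per transcript length. Each is 300 bases long in the sense of the gene, 250 before and 50 after the start that RefSeq annotates on GRCm38.p6, the assembly behind mm10. For Slit3 that start lies inside the gene span used for coordinates here, which GENCODE begins at 35121224, so most of the Slit3 window is within that span. Capitals mark matches to the GC box GGGCGG on either strand.
Epha3: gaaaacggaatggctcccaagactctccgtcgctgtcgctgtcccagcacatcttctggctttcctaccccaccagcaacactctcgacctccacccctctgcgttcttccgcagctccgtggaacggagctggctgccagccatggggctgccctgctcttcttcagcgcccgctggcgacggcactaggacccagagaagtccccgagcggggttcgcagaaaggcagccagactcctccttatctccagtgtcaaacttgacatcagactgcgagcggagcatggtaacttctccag
Slit3: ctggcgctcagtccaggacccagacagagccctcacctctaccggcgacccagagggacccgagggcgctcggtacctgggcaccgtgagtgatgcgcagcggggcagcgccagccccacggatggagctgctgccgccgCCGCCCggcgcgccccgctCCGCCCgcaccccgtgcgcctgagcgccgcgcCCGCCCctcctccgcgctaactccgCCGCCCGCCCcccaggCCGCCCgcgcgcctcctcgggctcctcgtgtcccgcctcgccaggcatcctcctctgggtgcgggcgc
The Epha3 window (chr16:63864126-63864425, minus strand) had 60.7% G and C, 18 CpG and 0 GC boxes. The Slit3 window (chr11:35121206-35121505, plus strand) had 78.3% G and C, 41 CpG and 6 GC boxes, some of them overlapping. The median over all 32851 windows was 52.7% G and C. The GC box stood in windows of 10 of the 15 genes and in 35.7% of all windows. TATAAA stood in windows of 3 of the 15 (Efnb2, Slit2 and Srgap3) and in 13.6% of all windows. The letters TGTGGT (in 16.8% of all windows), TGANTCA (7.81%) and CCGGAA (14.9%) matched in 0 of the 15. Motifs were searched on both strands, and Efna1 and Robo2 have several annotated starts. A match is a string of letters in this window and not a measured site.

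Slit2 and Slit3 each carry a copy of the same microRNA gene in an intron. Mir218-1 lies in Slit2 at chr5:48223942-48224051 and Mir218-2 in Slit3 at chr11:35616816-35616925, both on the strand of the host and clear of its exons. Both give the same mature sequence from the 5p arm, shown with the seed, bases 2 to 8, in capitals.
mmu-miR-218-5p: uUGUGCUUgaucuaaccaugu
The microRNA itself was not measured here, so only the host genes have values.

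The table had been filtered before deposit. In the authors' deposited table the largest adjusted p was 0.049, the smallest log2 change in either direction 0.50 and the lowest average 5.00 CPM (reads of a gene relative to all reads of its library). A listed gene therefore had to differ, and the counts that follow are a description. The ratio of adjusted to raw p in that table gives 18026 genes behind the authors' test, of which 11.1% were listed, and 63.4% of listed genes were lower in FGFR1-CKO. Library totals ran from 9642436 to 11094287 reads, and the 15 genes had 44 to 3826 reads per library. Fgfr1 (ENSMUSG00000031565), the targeted receptor, went from 594 ± 71.3 to 318 ± 32.1 CPM (SD, n = 4 each). The labels do not say that the libraries came from separate mice, so p-values reflect how much these samples varied, which may be technical variation alone.

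All 15 genes were lower in FGFR1-CKO, with log2 fold changes from -1.12 to -0.41 on the log2(CPM + 1) scale. By limma on all listed genes (adjusted p under 0.05 and a log2 change of at least 0.5), 11 fell and 0 rose, beside 38.4% of listed genes that fell and 36.6% that rose. All 5 Eph receptors fell, as did 3 of 4 ephrins, 1 of 2 Slits and 2 of 3 Robos. Efna5, Robo2, Slit2 and the single srGAP gene, Srgap3, missed the fold limit alone, since each of the 15 had a limma adjusted p of 0.00464 or less. In the authors' deposited table their log2 changes were -0.55, -0.53, -0.61 and -0.59, all past 0.5. Whether these genes passed therefore depended on the scale and normalization used. At an adjusted p under 0.05 and any fold, 62.9% of listed genes were lower. The median log2 fold change was -0.61 over the 15, -0.43 over all listed genes and -0.54 over the 1265 listed genes that were lower. The lowest Control library lay above the highest FGFR1-CKO library for 15 of 15, beside 54.9% of listed genes apart in this direction and 35.6% in the other. Groups that do not overlap fix the p of an exact two-sided permutation test at 0.0286, the smallest that 70 assignments allow. Each of the 15 had this p, which adds nothing to the separation itself. After rescaling by size factors, which moved the median of listed genes by -0.11 on the log2 scale, 15 of 15 fell, beside 58% of listed genes that fell and 32.6% that rose. With a pseudocount of 5 in place of 1, 7 fell, and 8 fell without Control replicate 4 and FGFR1-CKO replicate 3, which stood apart in osteoclast and osteoblast markers.

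**Figure D1:**
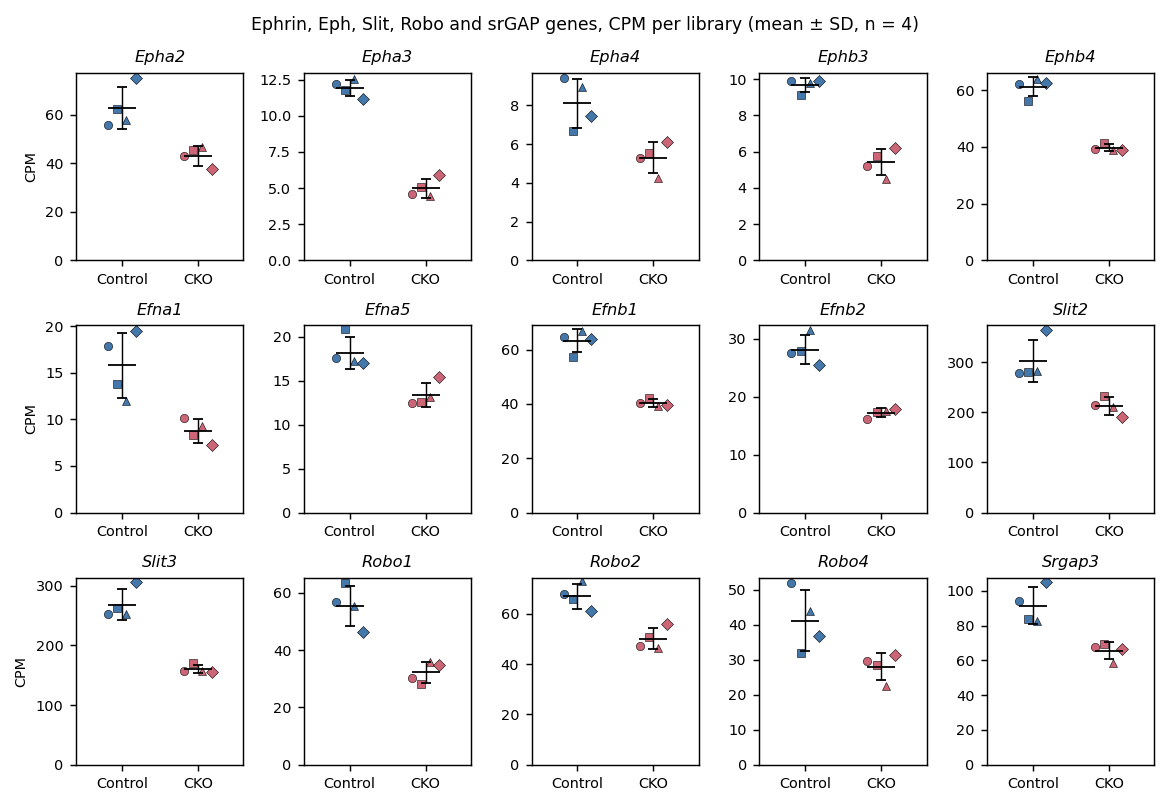
CPM of each of the 15 genes in the 4 Control and 4 FGFR1-CKO (CKO) libraries, with the mean and SD as bars and each axis starting at 0; a marker shape stands for a replicate number, which pairs nothing. Each panel shows the groups apart, by the widest relative margin in Epha3 (11.2 to 12.5 against 4.42 to 5.89 CPM).

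Among the ligands on the cell surface, Efna1, an ephrin-A (ENSMUSG00000027954, chromosome 3, 89271733 to 89281142; mm10 here and for all genes), measured 17.9, 13.8, 12.0 and 19.5 CPM in Control 1 to 4. In FGFR1-CKO 1 to 4 it measured 10.2, 8.30, 9.32 and 7.24 CPM. Controls varied widely, with replicate 3 lowest, and still did not reach down to the FGFR1-CKO libraries. On the log2 scale the change was -0.77 ± 0.15 (SE; limma adjusted p = 0.000604). Efna5 (ENSMUSG00000048915, chromosome 17, 62604184 to 62881317), the other ephrin-A, went from 18.2 ± 1.80 to 13.4 ± 1.38 CPM (SD, n = 4 each), a log2 difference of -0.41 that did not pass the fold limit (limma adjusted p = 0.00197). Its highest Control was replicate 2 at 20.8 CPM and its highest FGFR1-CKO library replicate 4 at 15.4 CPM, below every Control. After size-factor rescaling Efna5 had a log2 fold change of -0.52 and passed.

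The ephrin-B ligands fell by similar amounts. Efnb2 (ENSMUSG00000001300, chromosome 8, 8617434 to 8661242), carried by osteoclasts and by arterial endothelium, measured 27.5, 27.9, 31.5 and 25.5 CPM in Control and 16.1, 17.3, 17.5 and 17.9 CPM in FGFR1-CKO. The FGFR1-CKO libraries lay close together and all Controls well above them. This came to a log2 fold change of -0.68 ± 0.084 (SE; limma adjusted p = 2.60e-05). Efnb1 (ENSMUSG00000031217, chromosome X, 99136130 to 99148991), whose loss in humans and mice disturbs skull and skeletal patterning, went from 63.2 ± 4.20 to 40.4 ± 1.35 CPM (SD, n = 4 each), a log2 difference of -0.63 (limma adjusted p = 1.56e-05).

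Of the EphA receptors, Epha3 (ENSMUSG00000052504, chromosome 16, 63543534 to 63864175) had the lowest share left. It measured 12.2, 11.8, 12.5 and 11.2 CPM in Control and 4.56, 5.06, 4.42 and 5.89 CPM in FGFR1-CKO. Both groups were tight, and the FGFR1-CKO mean was 41.8% of the Control mean. In log2 terms the difference was -1.12 ± 0.11 (SE; 95% interval -1.35 to -0.88; limma adjusted p = 8.36e-06), rank 25 among the decreases in the table. The authors' deposited table gives -1.37 for Epha3. With a pseudocount of 0.1 the fitted value was -1.25, and after size-factor rescaling it was -1.21. From 117 to 136 reads lay behind each Control value and 44 to 57 behind each FGFR1-CKO value.

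Epha2 and Epha4 had smaller fitted decreases. Epha2 (ENSMUSG00000006445, chromosome 4, 141301240 to 141329384), a receptor of epithelium, vessels and bone cells, measured 56.0, 62.6, 57.8 and 75.3 CPM in Control and 42.9, 45.6, 46.8 and 37.5 CPM in FGFR1-CKO. Control 4 was the highest and FGFR1-CKO 4 the lowest. The fitted log2 change stood at -0.53 ± 0.11 (SE; limma adjusted p = 0.000592). It no longer passed without Control replicate 4 (-0.44) or without FGFR1-CKO replicate 4 (-0.46). Epha4 (ENSMUSG00000026235, chromosome 1, 77367185 to 77515088), which binds ephrins of both classes, was the lowest of the 15 per transcript length. It measured 9.40, 6.67, 8.93 and 7.44 CPM in Control and 5.29, 5.56, 4.23 and 6.10 CPM in FGFR1-CKO. The gap between the groups was small, from 6.10 to 6.67 CPM. limma put the log2 fold change at -0.53 ± 0.14 (SE; limma adjusted p = 0.00298), and it no longer passed without Control replicate 1 (-0.46), Control replicate 3 (-0.49) or FGFR1-CKO replicate 3 (-0.44).

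The listed EphB receptors were Ephb4 and Ephb3. Ephb4 (ENSMUSG00000029710, chromosome 5, 137350109 to 137378669), the receptor of ephrin-B2 on osteoblasts and venous endothelium, measured 62.2, 56.2, 64.0 and 62.5 CPM in Control and 39.4, 41.5, 38.8 and 38.9 CPM in FGFR1-CKO. The groups were far apart compared with their spread. The estimate in log2 units was -0.61 ± 0.069 (SE; limma adjusted p = 1.49e-05). Ephb3 (ENSMUSG00000005958, chromosome 16, 21204755 to 21223305) went from 9.67 ± 0.383 to 5.42 ± 0.731 CPM (SD, n = 4 each), a log2 difference of -0.74 (limma adjusted p = 8.05e-05).

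Of the secreted ligands, Slit3 (ENSMUSG00000056427, chromosome 11, 35121224 to 35708507) fell and Slit2 did not pass. Slit3 measured 252, 263, 253 and 306 CPM in Control and 157, 170, 157 and 155 CPM in FGFR1-CKO. Control 4 stood above the other Controls, and the FGFR1-CKO libraries kept within a narrow range. The FGFR1-CKO mean was 59.5% of the Control mean. It differed on the log2 scale by -0.74 ± 0.079 (SE; 95% interval -0.91 to -0.57; limma adjusted p = 1.14e-05), on 1503 to 3206 reads per library. The authors' deposited table gives -0.86 for Slit3, and size-factor rescaling gave -0.85.

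Slit2 (ENSMUSG00000031558, chromosome 5, 47983138 to 48307733) measured 279, 280.4, 284 and 365 CPM in Control. In FGFR1-CKO it measured 214, 233, 212 and 192 CPM. Control 4 was again the highest by a wide margin, and the other 3 Controls lay within 5 CPM. On the log2 scale the change was -0.50 ± 0.10 (SE; limma adjusted p = 0.000655), just short of the limit of 0.5 before rounding. It passed when any of Control replicates 1, 2 and 3 or FGFR1-CKO replicates 1 and 2 was left out (-0.54 to -0.50), and stood at -0.40 without Control replicate 4. The difference of log2 CPM between Slit3 and Slit2 was -0.17 ± 0.068 in Control and -0.41 ± 0.073 in FGFR1-CKO (SD, n = 4 per group), with groups that did not overlap. This pair was chosen after the values were seen.

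Among the Slit receptors Robo1 had the largest decrease. Robo1 (ENSMUSG00000022883, chromosome 16, 72308306 to 73046095) measured 56.7, 63.5, 55.2 and 46.3 CPM in Control and 30.3, 28.0, 35.8 and 34.6 CPM in FGFR1-CKO. Control 4, highest of its group for both Slits, was the lowest Control for Robo1. This came to a log2 fold change of -0.76 ± 0.11 (SE; limma adjusted p = 6.52e-05). Robo2 (ENSMUSG00000052516, chromosome 16, 73891839 to 74411825) measured 67.8, 65.8, 73.0 and 61.3 CPM in Control and 47.3, 50.9, 46.5 and 55.8 CPM in FGFR1-CKO. Its groups came close, with FGFR1-CKO 4 below the lowest Control. Its log2 fold change of -0.41 (standard error 0.083, limma adjusted p = 0.000616) did not pass the fold limit. Whether Robo1 and Robo2 differed in their change was not tested, and the difference of their log2 CPM, -0.28 ± 0.17 in Control and -0.64 ± 0.20 in FGFR1-CKO (SD, n = 4 per group), overlapped between the groups.

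Robo4 (ENSMUSG00000032125, chromosome 9, 37401897 to 37415115), the Robo of endothelium, measured 52.0, 32.0, 44.0 and 36.9 CPM in Control and 29.6, 28.4, 22.5 and 31.4 CPM in FGFR1-CKO. Control 2 lay just above FGFR1-CKO 4. In log2 terms the difference was -0.53 ± 0.15 (SE; limma adjusted p = 0.00464), and it no longer passed without Control replicate 1 (-0.41), Control replicate 3 (-0.49) or FGFR1-CKO replicate 3 (-0.43). Of 18 endothelial markers 9 were listed and 5 of them fell, where 11.1% of tested genes were listed and 38.4% of listed genes fell. The summed level of the 9 ran from 505 to 645 CPM in Control and from 363 to 409 CPM in FGFR1-CKO. The part of vessels in the Robo4 value was not tested. Fewer cells of a type and less RNA per cell cannot be told apart in bulk bone. Srgap3 (ENSMUSG00000030257, chromosome 6, 112717971 to 112947266), a GTPase-activating protein of the Slit and Robo pathway, measured 94.0, 83.7, 82.8 and 105.2 CPM in Control and 67.4, 69.5, 58.6 and 66.8 CPM in FGFR1-CKO. All FGFR1-CKO libraries were lower. Its log2 fold change of -0.47 (standard error 0.092, limma adjusted p = 0.000527) did not pass the fold limit, and it passed without Control replicate 2 (-0.51) or Control replicate 3 (-0.51).

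Levels were compared between genes as CPM per kilobase of the longest coding transcript. In Control the secreted Slits led, with Slit3 at 51.3 ± 4.86 and Slit2 at 30.3 ± 4.22 CPM per kb (SD, n = 4). The annotated lengths used were 5228 bases for Slit3 and 9960 bases for Slit2, and the order of these genes depends on them. Before division by length Slit2 was the higher in Control, at a mean of 302 CPM against 268 CPM for Slit3. Efnb1 (19.4), Epha2 (16.1) and Ephb4 (14.1) followed, then Srgap3 (10.3), Efna1 (9.67), Robo4 (8.33), Robo2 (7.80), Robo1 (7.33), Efnb2 (5.86) and Efna5 (4.50), as mean CPM per kb. Epha3 (2.10), Ephb3 (2.04) and Epha4 (1.28) were lowest. Neighbours in this order did not overlap across Control libraries at Slit3 over Slit2, Slit2 over Efnb1, Ephb4 over Srgap3, Efnb2 over Efna5, Efna5 over Epha3 and Ephb3 over Epha4. The other neighbours overlapped. The library protocol primed cDNA at random, so reads can come from the whole transcript, and the isoforms used in bone were not measured.

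**Figure D2:**
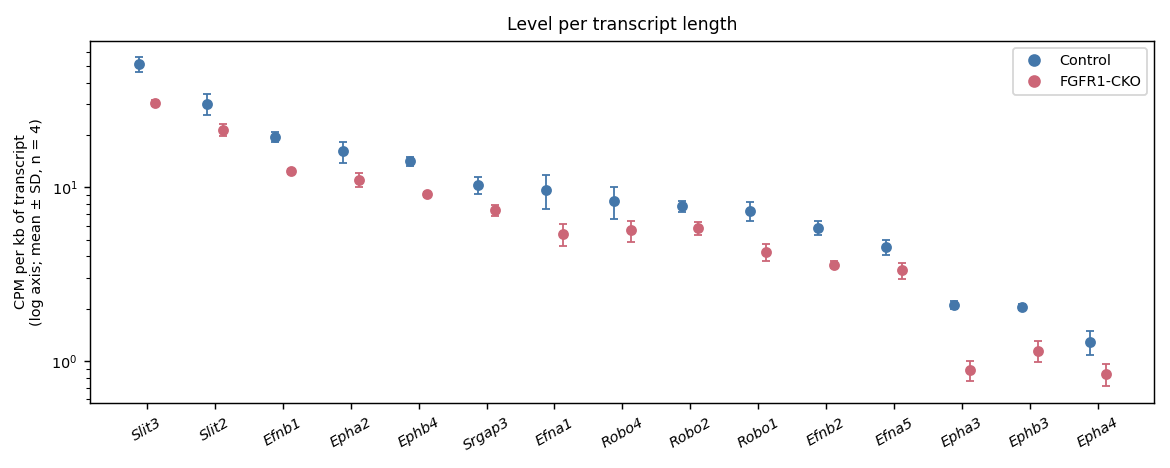
Level of each gene as CPM per kilobase of its longest coding transcript (log axis), mean with SD over 4 Control and 4 FGFR1-CKO libraries, in the order of the Control mean. Slit3 stands at 51.3 and Epha4 at 1.28 CPM per kb in Control, and each FGFR1-CKO mean is below its Control mean.

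The decreases came in libraries in which most chosen markers of bone-forming cells were lower. Markers of bone matrix were abundant, with Col1a1 at 93926 ± 16268 CPM and Dmp1 at 928 ± 79.9 CPM in Control (SD, n = 4). For the marker counts here, 11.1% of all genes tested by the authors were listed, 38.4% of listed genes fell and 36.6% rose. The marker lists were chosen with earlier results of these data known, so these counts are a description. All 22 osteoblast markers were listed and 21 fell. Their mean log2(CPM + 1) was 9.29 ± 0.083 in Control and 8.42 ± 0.098 in FGFR1-CKO (SD, n = 4 each), or -0.88 between them. Over the 15 guidance genes the same mean ran from 5.37 to 5.47 in Control and from 4.75 to 4.84 in FGFR1-CKO. Differences of this mean were -0.69 for 9 listed of 16 osteocyte markers (8 fell), -0.68 for 9 of 16 osteoclast markers (8 fell and Car2 rose), -0.51 for 9 of 18 endothelial markers, -0.63 for 7 of 11 pericyte and smooth muscle markers, -0.80 for 5 of 10 tendon and periosteum markers and -0.52 for 4 of 10 stromal markers. In the other direction, 20 of 21 erythroid markers were listed and 20 rose, with a summed level of 7302 to 10350 CPM in Control and 21070 to 25060 CPM in FGFR1-CKO. All 9 listed of 19 neutrophil markers (difference of the mean 0.81) and 4 of 12 B cell markers (0.81) rose too. Listed were also 2 of 13 chondrocyte markers (-0.55), 2 of 15 monocyte and macrophage markers (-0.41) and 0 of 11 skeletal muscle markers. The part of these cell types in the 15 values was not tested.

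**Figure D3:**
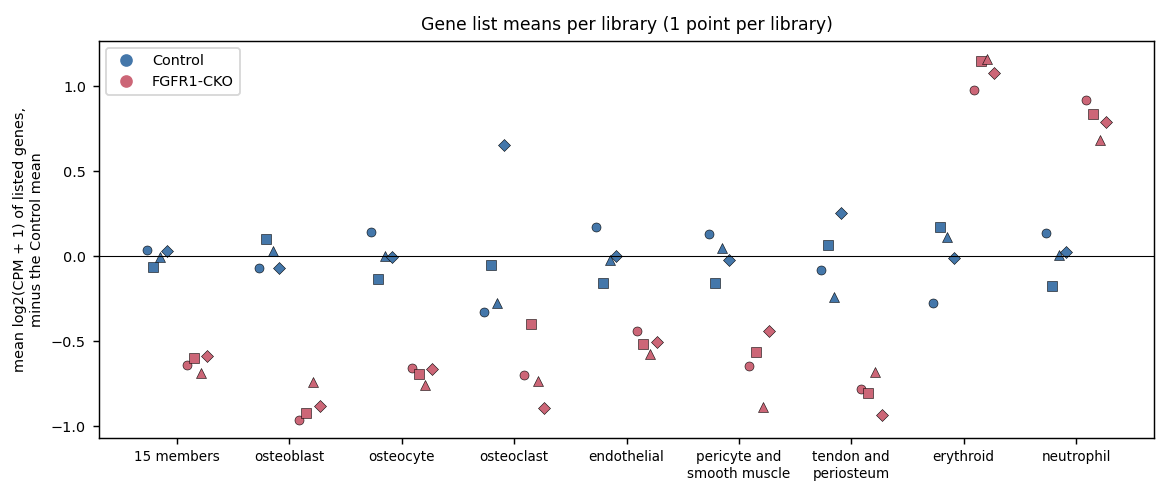
Mean log2(CPM + 1) over listed genes of each list in every library, minus the Control mean of that list; circles, squares, triangles and diamonds are replicates 1 to 4 of a group. The 15 guidance genes and the osteoblast, osteocyte, osteoclast, endothelial, pericyte and tendon lists are lower in all FGFR1-CKO libraries, while the erythroid and neutrophil lists are higher.

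Set against the osteoblast list, none of the 15 passed the threshold in either direction. That list was chosen with earlier results of these data known. Its mean differed by -0.88 on the log2 scale, so subtracting it moved the difference of each gene upward and left little room to fall. With the osteoblast mean of each library subtracted and limma run on all listed genes, 0 of 15 fell and 0 rose past a log2 difference of 0.5, beside 0.1% of listed genes that fell and 39.2% that rose. Without the limit on size, 5 of the 15 had a limma adjusted p under 0.05, beside 68.4% of listed genes that were higher and 0.401% that were lower. These 5 were Robo2 (0.46), Efna5 (0.46), Srgap3 (0.41), Slit2 (0.38) and Epha2 (0.35), all higher relative to the list, with adjusted p from 0.00266 to 0.0253 by limma. Robo2, Efna5 and Srgap3 passed the threshold when FGFR1-CKO replicate 3 was left out (3 of 15). That library had the highest osteoblast mean of its group, 8.56 against 8.33 to 8.41.

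Of the 15 genes 14 had a relative difference above 0, with a median of 0.26 beside 0.33 over listed genes that were lower. Epha3 was the exception, at -0.24 (95% confidence interval -0.54 to 0.06, limma adjusted p = 0.135), so it was not shown to fall beyond the osteoblast genes. Its value turned to 0.083 with a pseudocount of 5. For Slit3 the relative difference was 0.13 (95% confidence interval -0.10 to 0.37, limma adjusted p = 0.285).

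**Figure D4:**
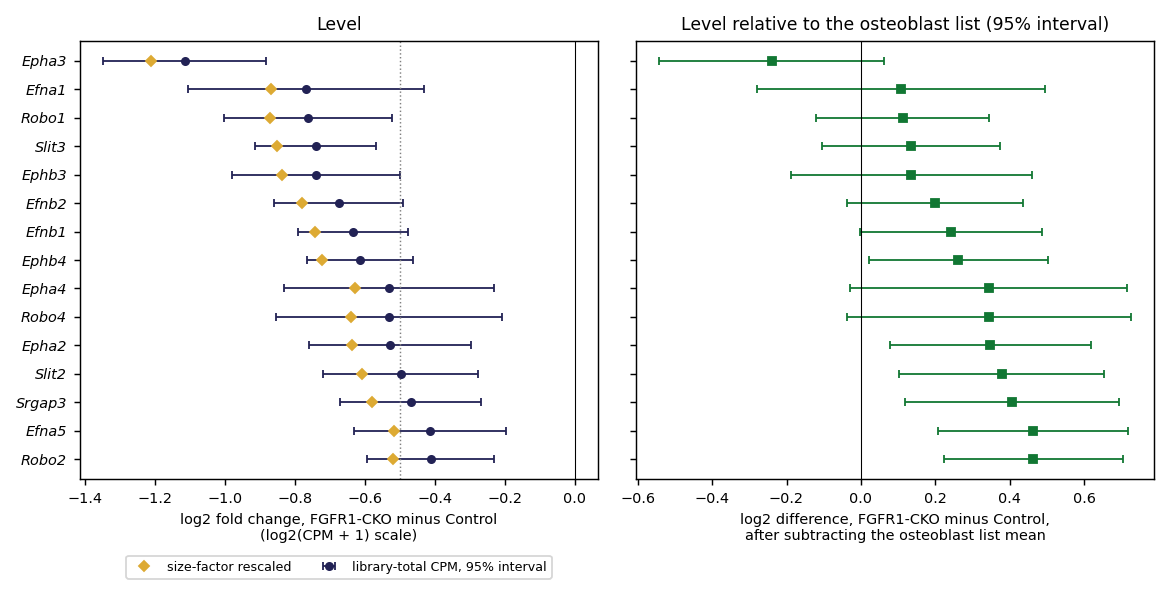
Left, log2 fold change of each gene (FGFR1-CKO minus Control, log2(CPM + 1) scale) with its 95% confidence interval, the value after size-factor rescaling as diamonds and the limit of -0.5 dotted; right, the log2 difference after the osteoblast list mean was subtracted, with its 95% confidence interval. The left values run from -1.12 (Epha3) to -0.41 (Robo2), and on the right 14 of 15 lie above 0.

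Ligands were also set beside a receptor in the same library, for pairs chosen after the values were seen. Efnb2 minus Ephb4, in log2 CPM, was -1.13 ± 0.14 in Control and -1.21 ± 0.084 in FGFR1-CKO (SD, n = 4 per group), and the groups overlapped. Efnb1 minus Ephb4 was 0.046 ± 0.019 and 0.026 ± 0.0041, also with overlap. For Slit3 minus Robo1 the values were 2.28 ± 0.30 and 2.32 ± 0.21, again with overlap. Epha3 minus Efna5 was the exception among the ligand and receptor pairs, at -0.60 ± 0.15 in Control and -1.43 ± 0.11 in FGFR1-CKO without overlap. Against its fellow receptors Epha3 moved from 0.57 ± 0.19 to -0.084 ± 0.12 relative to Epha4 and from 0.30 ± 0.093 to -0.12 ± 0.079 relative to Ephb3, both without overlap. It was thus above Epha4 in each Control library in CPM, and close to it in FGFR1-CKO. In all, 12 pairs were compared and none was tested.

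Within groups, genes varied together across libraries to different degrees. The measure was Pearson's r of deviations from the group mean over 8 libraries, which share depth and tissue makeup, and it is a description. Among the 15, Efnb1 and Ephb4 were most alike (r = 0.99), followed by Epha4 with Robo4 (0.96), Epha3 with Robo2 (0.94) and Slit2 with Slit3 (0.94). Efna1 and Efnb2 were most opposed (-0.89). Across the whole table the 4 genes most like Slit3 were Oscar (0.99), Acp5 (0.99), Dcstamp (0.99) and Abca6 (0.99). Oscar, Acp5 and Dcstamp are genes of osteoclasts and belong to the osteoclast marker list, so the mean of that list is not independent of them. Control replicate 4, where Slit3 was highest, had an osteoclast list mean of 7.17 against 6.19 to 6.47 in the other Controls. With that library dropped but the group means left as they were, the 4 values were 0.97 to 0.98. Its pull on the Control mean thus remains in these values. The 4 most like Epha3 were Clock (0.98), a circadian transcription factor, Pcdh19 (0.98), a protocadherin, Tuba1a (0.97), a tubulin, and BC055402 (0.96). With FGFR1-CKO replicate 4 dropped in the same way, these were 0.90 to 0.97.

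Effectors and partners of these receptors were lower too where listed, beside 63.4% of all listed genes that were lower. Of 87 effectors and partners of Eph or Robo signalling, 17 were listed, 10 fell and 0 rose. The median log2 fold change of the 17 was -0.59. Of all genes tested by the authors 11.1% were listed, and 38.4% of listed genes fell. On the Eph side 8 of 52 were listed. The ephexin genes Ngef and Arhgef19, which act below EphA receptors, had log2 fold changes of -0.59 and -0.84. The adaptors Grb10 and Grb14 had -0.58 and -0.78, and Chn1, a Rac GTPase-activating protein used by EphA4, had -0.95 with groups that overlapped. These 5 fell. Arhgef15 (-0.49), the Src family kinase Yes1 (-0.41) and Rgs3 (-0.44) did not pass.

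On the Slit and Robo side 9 of 40 were listed and 5 fell, where 11.1% of tested genes were listed and 38.4% of listed genes fell. Syndecans are heparan sulfate proteoglycans of the kind that hold Slit at the cell surface. Sdc1 went from 81.6 ± 9.89 to 46.7 ± 2.33 CPM and Sdc2 from 70.9 ± 6.70 to 42.2 ± 2.65 CPM (SD, n = 4 each), or log2 differences of -0.79 and -0.73. Cdh2 (N-cadherin), the adhesion protein gene Flrt2 and the procollagen protease gene Bmp1 had -0.83, -0.76 and -0.65. The syndecans Sdc3 (-0.45) and Sdc4 (-0.47), Enah (-0.39), an actin regulator, and Lrig3 (-0.44) did not pass.

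The authors' deposited workbook marks these genes in gene lists of its own, drawn from the same libraries and so not independent. Its list of neuron development genes held 5.27% of the 1994 genes and 11 of the 15, all but Epha2, Ephb4, Robo1 and Srgap3. The same 11 stood in its axon guidance list of 37, which is headed by an annotation term. These families are best known for steering axons, so their presence in such lists follows largely from annotation and is not a result. Its list on positive regulation of cell migration held Epha2 and Epha4 among 72. A further list of the authors, from the mouse osteocyte-like cell line Ocy454, matched 183 of the 1994 genes (9.18%). It held 5 of the 15: Efna5, Efnb2, Epha4, Robo2 and Slit3.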

How the data were processed

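Total RNA of flushed femoral bone was depleted of ribosomal RNA, primed with random hexamers and sequenced in pairs, per the labels' protocols. Per the submitters' processing notes, the mm10 build was used with DESeq2, edgeR, RSEM, Subread 2.0.1, featureCounts, STAR 2.7.9a and cutadapt, without stated roles. Strand use is not given in the sources used here. Deposited, per the file headers, were CPM per library, a mean normalized count over the 8 libraries (a signal), log2 fold changes, p-values, adjusted p-values and symbol lists. A workbook note says that 436 genes averaging under 5 CPM were removed.

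A total that turned 100% of a library's CPM into whole reads within 0.001 was found for each library; neighbouring totals did so too, and the smallest was used. Size factors (0.984 to 1.02) were solved from the authors' mean normalized counts. limma 3.58.1 (R 4.3.3, eBayes with trend, 2-sided) was fitted to log2(CPM + 1) of all 1994 genes with genotype as the term, Benjamini-Hochberg adjustment and a 95% confidence level; the step was tested on simulated data. Gene positions and transcript lengths come from GENCODE M21 for mm10, which held 1922 of the listed symbols. Replicate numbers are accession order. Named were Fgfr1, every gene that met the symbol rule, listed genes of the Eph, Slit and netrin lists and the 4 genes most like Epha3 or Slit3; the pairs, the motifs and the marker genes named elsewhere were chosen after values were seen. Genes and lists were chosen with earlier results of these data known. Alternatives were other pseudocounts, size-factor rescaling, a minimum of 10 CPM, limma without trend and leaving out libraries.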

Additional observations from a re-analysis of the deposited data

Results flagged for a closer look

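In 30 groups of 4 libraries (the 15 genes in each genotype), 3 held a library set far from the others of its group, by a test of the gap against the range that chance meets in about 1 group in 20. Slit2 was 365 CPM in Control replicate 4, and the nearest other Control was 284 CPM. Slit3 was 170 CPM (169.6) in FGFR1-CKO replicate 2, and the nearest other library of that group was 157 CPM. Efna5 was 20.8 CPM in Control replicate 2, and the nearest other Control was 17.6 CPM. None of these libraries was removed, and each lay on its own group's side of the gap between genotypes. The cause was not tested.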

How the results depend on the processing

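Over 207 combinations of a gene and an alternative, 181 kept direction and side of the threshold, 15 no longer passed, 11 newly passed and 0 changed sign. Epha3 fell in all 13 alternatives that gave it a value (-1.25 to -0.76, largest limma adjusted p 6.84e-05) and Slit3 in all 14 (-0.85 to -0.67, largest limma adjusted p 8.18e-05). Of the 15 genes, 11 fell; the count was 7 with a pseudocount of 5, which shrinks low genes, 15 after size-factor rescaling, 11 with a pseudocount of 0.1 or without trend, 8 of 12 at a mean of at least 10 CPM (Epha3, Epha4 and Ephb3 then have no value), 9 to 13 with each library left out in turn, and 8 without Control replicate 4 and FGFR1-CKO replicate 3 together. Relative to the osteoblast list 0 passed; the count was 1 with a pseudocount of 5, 0 to 3 with each library left out, and 4 without those 2 libraries. The cause was not tested. Over all listed genes, 766 fell and 729 rose, against 1156 and 651 after size-factor rescaling. No paired analysis was possible because the labels number no replicates and accession order pairs nothing. The planned edgeR and DESeq2 fits on whole reads were not run. Depth limits Epha3, Epha4 and Ephb3 most, with 44 to 136 reads per library, and p-values were adjusted over genes already selected for differing.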

Other observations

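Genes of a further guidance list, with netrins and their partners among them, were also lower where listed. Of 22 genes 5 were listed, 4 fell and 0 rose, where 11.1% of all genes tested by the authors were listed, 38.4% of listed genes fell and 36.6% rose. Unc5b, a netrin receptor of endothelium and other cells, went from 234 ± 22.1 to 143 ± 13.4 CPM (SD, n = 4 each), a log2 difference of -0.70. The netrin receptor gene Neo1 (neogenin) had -0.56, the ligand gene Ntn1 (netrin-1) -0.52 and Slitrk6 -0.73 with groups that overlapped. Draxin, a secreted netrin antagonist, had -0.43 and did not pass. Of 17 nerve and Schwann cell markers 3 were listed: S100b fell (-1.07), Gfap rose (0.88) and Pmp22 did not pass (-0.45).

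Epha3, Robo1 and Robo2 lie in one stretch of mm10 chromosome 16, from 63543534 to 74411825. The stretch was drawn from the start of Epha3 to the end of Robo2, so these genes bound it by construction. Of the 1922 listed symbols that the annotation placed, these 3 were the ones within its 10868292 bases. All 3 were lower, as were all genes described here, so this adds nothing, and a regional change was not tested. Of 62 listed genes placed on chromosome 16, 67.7% were lower, beside 63.4% of the whole table.

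The authors' Ocy454 lists include columns headed as up with BGJ and up with FGF2, without a fuller definition. Of 80 listed genes in the first kind, 95% were lower in FGFR1-CKO bone, beside 63.4% of all listed genes, with Efna5, Epha4 and Slit3 among them. Of 41 in the second, 95.1% were lower, beside the same 63.4%, with Efnb2 among them. Robo2 stood in neither kind of column. These lists come from an osteocyte-like line, and in this bone all 9 listed osteocyte markers and all 22 osteoblast markers were lower too. The 63.4% is taken over all listed genes, with the erythroid and neutrophil markers that rose among them. The part of the cell source of the lists in these shares was not tested.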
